A study of Homo sapiens with 6 samples.

Results

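The 35 genes described here encode aminoacyl-tRNA synthetases, the enzymes that join each amino acid to the tRNA that carries it to the ribosome. Of the 58336 genes in the deposited count table, these 35 were matched by symbol to an Ensembl identifier, 19 of them cytosolic and 16 mitochondrial enzymes. RNA came from A2780 cells, an established ovarian cancer line grown in RPMI medium with serum, insulin and glutamine. In 3 libraries (A, B and C) the cells had received DMSO vehicle, and in the other 3 they had received the mitotic MTH1 inhibitor TH588 at 6 µM for 48 h. The comparison asked how RNA levels differed with TH588 at this dose and time, and it covers 1 cell line.

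Each synthetase activates its amino acid with ATP and transfers it to the matching tRNA, and a wrong or missing charge stalls or miscodes translation. Most amino acids have separate nuclear genes for the cytosolic and the mitochondrial enzyme, while *GARS1* and *KARS1* each make both forms and *QARS1* has no mitochondrial counterpart among these genes. In all counts, medians and sums by compartment below, *GARS1* and *KARS1* are taken as cytosolic only. Several cytosolic enzymes are bound in a multi-synthetase complex held by the scaffold proteins AIMP1, AIMP2 and EEF1E1. When uncharged tRNA builds up, the kinase GCN2 raises translation of the transcription factor ATF4, and many cytosolic synthetase genes are known ATF4 targets.

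Library totals ran from 28537837 counts (TH588 A) to 99074175 counts (TH588 B). In TH588 A the small nucleolar RNA *SNORD3A* took 21.9% of counts, against 7.68% to 12.9% in the other libraries. *CDKN1A*, which encodes p21 and was read as a check of the treatment label, lay between 4.84 and 5.72 CPM (normalized counts scaled to the library size) with DMSO and between 111.7 and 158.3 CPM with TH588. Of 10 epithelial and ovarian markers, 3 exceeded 1 CPM in the mean over all libraries (*VIM*, *KRT18* and *EPCAM*), while *PAX8* and *MUC16* had 0 counts in all DMSO libraries. *EPCAM* passed only through TH588, at 0.50 to 0.89 CPM with DMSO and 4.33 to 4.96 CPM with TH588. *EPCAM* (log2 fold change 2.87, adjusted p = 8.23e-07 by edgeR's quasi-likelihood test) and *KRT18* (0.88, adjusted p = 1.70e-04, 16.3% of exon bases shared with *KRT8*) rose with TH588. The 10 markers summed to 3343 to 3749 CPM with DMSO and 3340 to 4060 CPM with TH588, almost all of it the mesenchymal gene *VIM*, so the sum does not track the epithelial markers. Of 10 blood, vessel and fibroblast markers, *CD3E* was at 0 in all libraries, and their sum, mostly the collagen *COL3A1*, was 1588 to 1916 CPM with DMSO and 1875 to 2615 CPM with TH588. The part these differences played in the synthetase values was not tested.

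Synthetase RNA was lower with TH588 in both compartments, and in more of the cytosolic genes. All 35 genes passed the filter on low counts. By edgeR's quasi-likelihood test with Benjamini-Hochberg adjustment over 15844 genes, 24 of 35 were lower and 2 were higher at an adjusted p under 0.05, where 25.3% of all genes tested were lower and 24.2% were higher. Among the cytosolic enzymes 16 of 19 fell, 1 rose and 2 were not called. Among the mitochondrial enzymes 8 of 16 fell, 1 rose and 7 were not called. The difference between these shares was not tested. The median log2 fold change was -0.61 for the cytosolic and -0.29 for the mitochondrial genes, beside 0.02 for all genes tested. These values are shares of each library's RNA from whole cultures, so a change in which cells were present and less RNA per cell cannot be told apart.

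The reads given to these 35 genes made up 0.655% to 0.693% of the DMSO libraries and 0.440% to 0.551% of the TH588 libraries. The 3 libraries of a treatment did not overlap those of the other for 29 of 35 members, 26 lower and 3 higher with TH588, while 57.7% of all genes tested were separated in this way. A called fall with an estimate of more than 2-fold was found for 4 members (*YARS1*, *FARSB*, *GARS1* and *EPRS1*), all cytosolic, against 4.76% of all genes. The 2-fold limit itself was not tested. With scaling by library size only, *EPRS1* (log2 fold change -0.96) and *GARS1* (-0.97) fell by less than 2-fold. No gene on the mitochondrial list fell by more than 2-fold, though *GARS1*, counted as cytosolic, also makes the mitochondrial glycine enzyme.

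**Figure D1:**
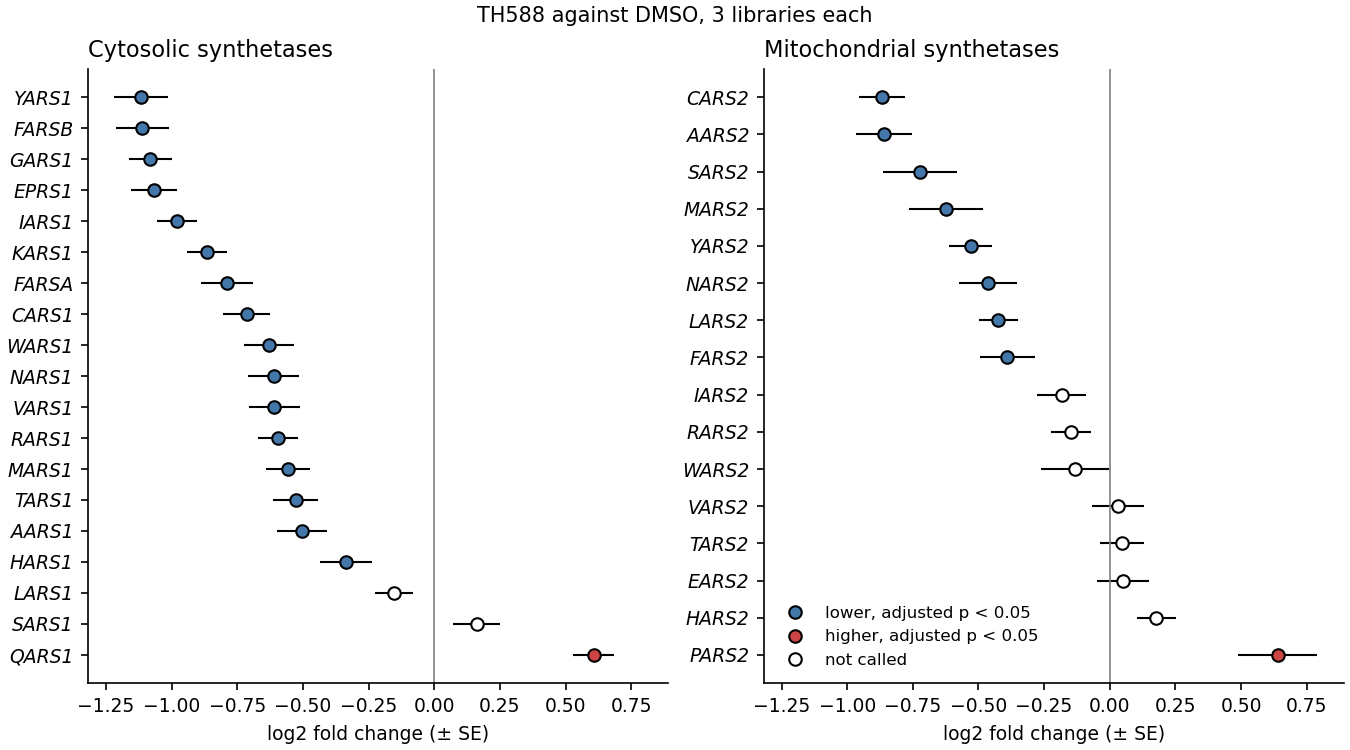
log2 fold change of each synthetase gene, TH588 against DMSO (horizontal axis), with bars for 1 standard error, from edgeR's fit over 3 libraries per treatment. Blue points were lower and red points higher at an adjusted p under 0.05, and white points were not called. In the left panel 16 of 19 cytosolic genes lie on the lower side as blue points, and in the right panel 8 of 16 mitochondrial genes do.

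*YARS1* (ENSG00000134684, chromosome 1, 32775237 to 32818153 on GRCh38, minus strand), the cytosolic tyrosine enzyme, had the largest fall among the members. It was at 361.1, 328.4 and 351.4 CPM in DMSO A, B and C, against 140.5, 184.6 and 154.6 CPM in TH588 A, B and C. All TH588 libraries lay far below the DMSO libraries, with TH588 B the highest of them. The log2 fold change was -1.12 (SE, the standard error, 0.10, adjusted p = 2.81e-06 by edgeR's quasi-likelihood test with Benjamini-Hochberg adjustment, as for the members that follow). On the opposite strand the exons of *S100PBP* cover 4.82% of its exon bases.

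*FARSB* and *FARSA* encode the beta and alpha subunits of the cytosolic phenylalanine enzyme, which works as a tetramer of both. *FARSB* (ENSG00000116120, chromosome 2, 222570536 to 222656337, minus strand) was at 103.6, 95.8 and 98.5 CPM in DMSO A, B and C, against 53.6, 43.3 and 41.4 CPM in TH588 A, B and C. The groups did not overlap, and TH588 A was the highest treated library. Its log2 fold change was -1.11 (SE 0.10, adjusted p = 2.70e-06). *FARSA* fell as well, by 0.79 on the log2 scale (SE 0.10, adjusted p = 3.55e-05), so both subunits of this enzyme were lower.

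*GARS1* (ENSG00000106105, chromosome 7, 30594681 to 30634033, plus strand) makes the glycine enzyme of both the cytosol and the mitochondria, and 2.38% of its exon bases are shared with *GARS1-DT*. Its levels were 283.8, 290.5 and 298.5 CPM with DMSO (A, B and C) and 124.9, 143.1 and 144.1 CPM with TH588 (A, B and C). The libraries of each treatment were close together and well apart from those of the other treatment. The log2 fold change was -1.08 (SE 0.08, adjusted p = 7.14e-07). *KARS1*, the lysine enzyme and the other member that serves both compartments, fell by 0.87 on the log2 scale (SE 0.08, adjusted p = 2.07e-06).

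*EPRS1* and *IARS1* encode large enzymes of the multi-synthetase complex. *EPRS1* (ENSG00000136628, chromosome 1, 219968601 to 220046658, minus strand), a fusion of the glutamate and proline enzymes, was at 603.5, 572.1 and 632.5 CPM in DMSO A, B and C, against 260.8, 310.6 and 290.7 CPM in TH588 A, B and C. Its log2 fold change was -1.07 (SE 0.09, adjusted p = 1.20e-06). In no TH588 library did it come near the DMSO range.

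The isoleucine enzyme gene *IARS1* (ENSG00000196305, chromosome 9, 92210207 to 92293756, minus strand) was at 762.2, 738.5 and 809.2 CPM in DMSO A, B and C, against 385.8, 405.3 and 380.5 CPM in TH588 A, B and C. The TH588 libraries were nearly equal, all well below the lowest DMSO library. The log2 fold change was -0.98 (SE 0.08, adjusted p = 9.38e-07). No exon bases of *EPRS1* or *IARS1* are shared with another annotated gene.

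*CARS2* (ENSG00000134905, chromosome 13, 110641412 to 110713603, minus strand), the mitochondrial cysteine enzyme, had the largest fall on the mitochondrial list. It was at 41.8, 41.2 and 43.3 CPM in DMSO A, B and C, against 24.7, 23.4 and 21.2 CPM in TH588 A, B and C. The groups were again separate, and 3.12% of its exon bases are shared with *ING1*. The log2 fold change was -0.87 (SE 0.09, adjusted p = 6.01e-06), next to *AARS2*, the mitochondrial alanine enzyme, at -0.86 (SE 0.11, adjusted p = 3.53e-05).

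Of the 35 genes, 2 rose. *QARS1* (ENSG00000172053, chromosome 3, 49095932 to 49105135, minus strand, 1.30% of exon bases shared) encodes the cytosolic glutamine enzyme, a member of the multi-synthetase complex. It was at 240.8, 233.6 and 225.1 CPM in DMSO A, B and C, against 364.1, 368.2 and 333.7 CPM in TH588 A, B and C. Every TH588 library was above every DMSO library, the opposite order to that of the other called complex members. The log2 fold change was 0.61 (SE 0.08, adjusted p = 4.20e-05).

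*PARS2* (ENSG00000162396, chromosome 1, 54756898 to 54764514, minus strand), the mitochondrial proline enzyme, was the lowest of all 35 genes in level with DMSO. With TH588 *SARS2* was lower (1.16 against 1.73 CPM per kilobase of exon), but 57.0% of the exon bases of *SARS2* are shared, so this order is uncertain. *PARS2* was at 2.28, 2.69 and 2.86 CPM in DMSO A, B and C, against 4.15, 4.22 and 3.85 CPM in TH588 A, B and C. Its TH588 libraries were all above its DMSO libraries, with a log2 fold change of 0.64 (SE 0.15, adjusted p = 3.87e-03). *EPRS1*, which charges proline in the cytosol, moved the other way.

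The other 11 cytosolic genes called lower had log2 fold changes from -0.87 (*KARS1*) to -0.34 (*HARS1*). Beside *FARSA* and *KARS1* they were *CARS1*, *WARS1*, *NARS1*, *VARS1*, *RARS1*, *MARS1*, *TARS1* and *AARS1*, between -0.71 and -0.50, and the groups did not overlap for any of them. Exons of other genes cover 13.3% of the exon bases of *MARS1* and 10.6% of those of *WARS1*. *HARS1*, the histidine enzyme, had the weakest call (adjusted p = 0.0137), and its log2 fold change was -0.22 (adjusted p = 0.0746) without TH588 C. The call was also missed without DMSO A (adjusted p = 0.0661), without DMSO C (adjusted p = 0.0625) and with scaling by library size only (adjusted p = 0.0980).

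The leucine enzyme *LARS1* and the serine enzyme *SARS1* were the 2 cytosolic genes not called. *LARS1* was between 443.1 and 462.8 CPM with DMSO and between 403.1 and 412.5 CPM with TH588, so the groups were separate by a small margin (log2 fold change -0.15, SE 0.07, adjusted p = 0.0998). *SARS1* was between 90.4 and 93.2 CPM with DMSO and between 90.2 and 111.4 CPM with TH588, and the groups overlapped (log2 fold change 0.16, adjusted p = 0.152). Without TH588 A, which held its lowest treated value, *SARS1* was called higher (log2 fold change 0.26, adjusted p = 0.00855).

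The other mitochondrial genes called lower were *AARS2*, *SARS2*, *MARS2*, *YARS2*, *NARS2*, *LARS2* and *FARS2*, with log2 fold changes from -0.86 to -0.39. Exons of other genes, among them *MRPS12*, cover 57.0% of the exon bases of *SARS2*, so its value is uncertain. *FARS2*, the phenylalanine enzyme, missed the threshold without DMSO C (adjusted p = 0.0510). The 7 mitochondrial genes not called (*IARS2*, *RARS2*, *WARS2*, *VARS2*, *TARS2*, *EARS2* and *HARS2*) had log2 fold changes from -0.18 to 0.18. At the upper end *HARS2* was between 70.9 and 75.5 CPM with DMSO and between 79.7 and 85.0 CPM with TH588, groups that did not overlap (adjusted p = 0.0676). It was called higher with scaling by library size only, with at least 10 counts required in every library, and without TH588 A, with log2 fold changes between 0.20 and 0.28. *VARS2*, which shares 22.0% of its exon bases with *GTF2H4*, lay at 0.03 and had groups that overlapped.

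*HARS1* and *HARS2* lie head to head on opposite strands of chromosome 5 and share 437 bases. Exons of other genes cover 8.38% of the exon bases of *HARS1* and 15.8% of those of *HARS2*. The library kit does not mark strand, so reads from the shared stretch cannot be assigned to one of them. On chromosome 1 *EPRS1* and *IARS2* lie 47.4 kb apart, and their log2 fold changes were -1.07 and -0.18.

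Levels between genes were compared as CPM per kilobase of exon. The exon length held all annotated exon bases of a gene, and the order depends on it. In CPM, for instance, *CARS1* (mean 57.8 with DMSO) lay above *WARS1* (52.5). With DMSO the cytosolic genes ran from 134.9 ± 5.43 (SD, n = 3) for *AARS1*, the alanine enzyme, through 126.9 ± 2.38 for *KARS1* and 110.6 ± 5.55 for *EPRS1*, down to 5.76 ± 0.343 for *CARS1*, the cysteine enzyme. The mitochondrial genes were mostly lower and ran from 86.7 ± 5.81 for *IARS2* and 53.8 ± 0.786 for *RARS2* down to 1.11 ± 0.128 for *PARS2*. Neighbours such as *NARS1* (76.4 ± 4.05) and *TARS1* (76.3 ± 4.13), *RARS1* (56.4 ± 2.45) and *LARS1* (55.6 ± 1.24), or *TARS2* (20.2 ± 0.171) and *HARS2* (19.7 ± 0.640) did not differ beyond their spread. *QARS1* had the place 12 of 19 with DMSO, at 49.5 ± 1.66, and with TH588 it reached 75.5 ± 4.01, above every cytosolic gene but *AARS1*, at 95.2 ± 11.5. Level and change were little related. Pearson's r between the log2 of the mean DMSO level and the log2 fold change was -0.165 across the 19 cytosolic genes. Across the 16 mitochondrial genes it was -0.014. These are descriptions across genes that share the same libraries, and the DMSO level is also part of the fold change.

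**Figure D2:**
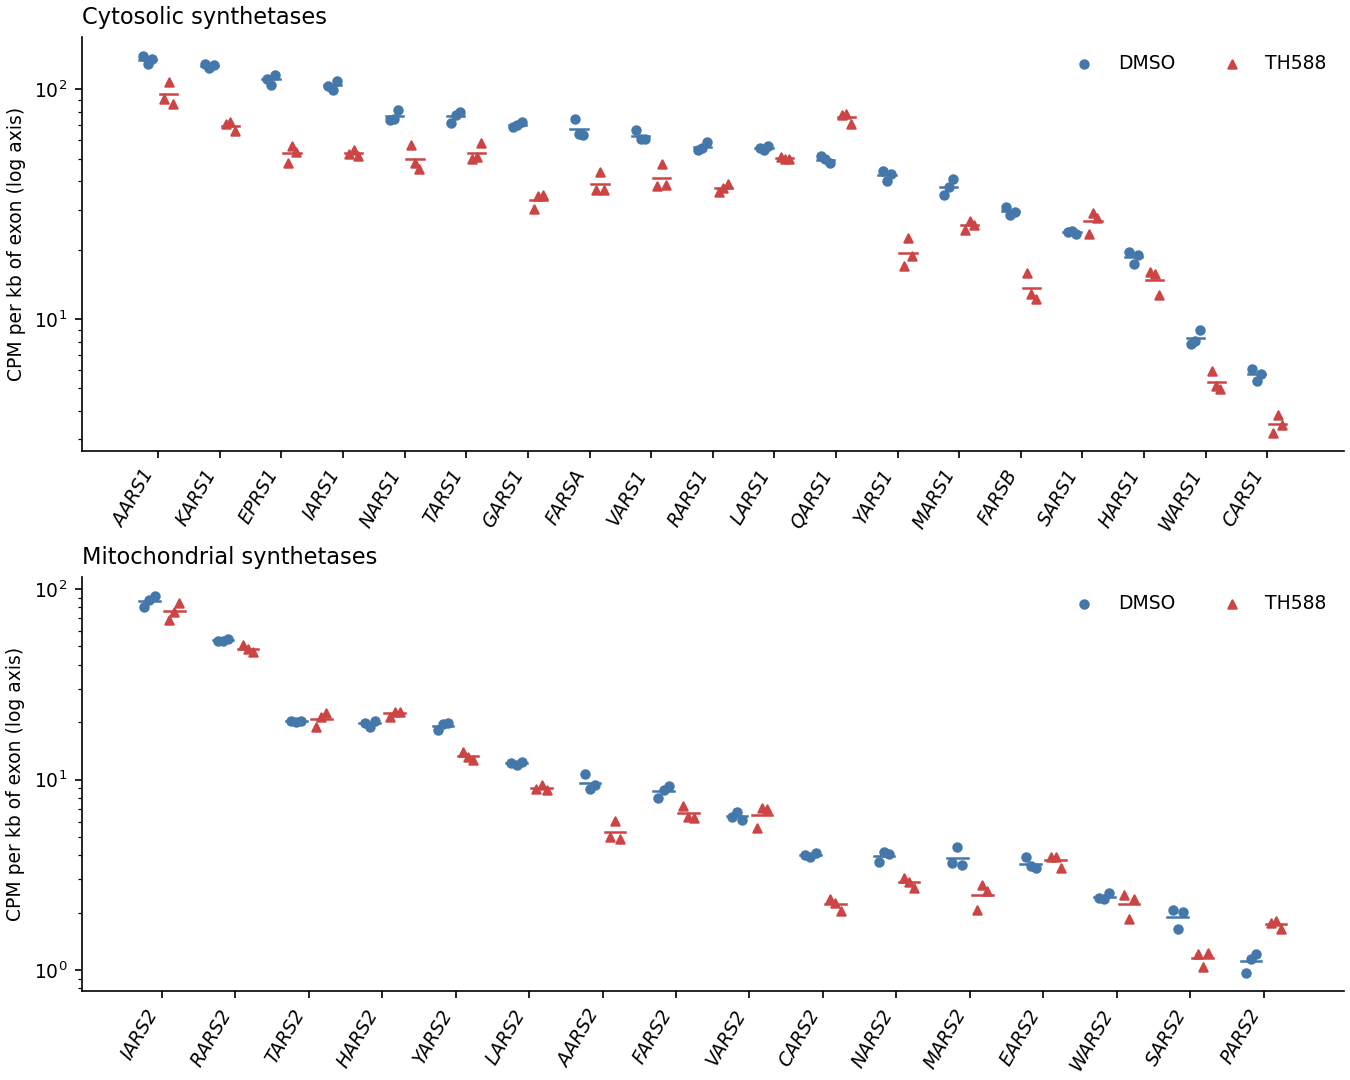
Level of each synthetase gene in every library, as normalized CPM per kilobase of exon on a log axis, with blue circles for DMSO, red triangles for TH588 and a short line at each mean of 3. Genes are ordered by their DMSO mean, from AARS1 (134.9) to CARS1 (5.76) above and from IARS2 (86.7) to PARS2 (1.11) below. The triangles of QARS1 and PARS2 stand above their circles, and those of YARS1, FARSB, GARS1 and EPRS1 stand farthest below.

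Added up, the cytosolic genes reached 1165, 1126 and 1179 CPM per kilobase in DMSO A, B and C, against 743.6, 796.8 and 734.4 in TH588 A, B and C. The treated mean was 0.656 of the DMSO mean. The mitochondrial genes summed to 250.1, 256.4 and 265.3 with DMSO and to 217.4, 226.4 and 231.7 with TH588, a ratio of means of 0.875. Neither sum overlapped between treatments. The cytosolic sum, with *GARS1* and *KARS1* included, was 4.39 to 4.66 times the mitochondrial sum with DMSO and 3.17 to 3.52 times with TH588.

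The log2 ratio of the cytosolic to the mitochondrial level was compared within each library for 13 amino acids with genes of matching name. Phenylalanine (*FARSA*, *FARSB* and *FARS2*), glutamate (*EPRS1* and *EARS2*) and proline (*EPRS1* and *PARS2*) also have members for both compartments. Their ratios were not compared. With TH588 the ratio was lower without overlap in 7 pairs (isoleucine, valine, tyrosine, threonine, histidine, tryptophan and arginine), higher without overlap in 3 (serine, alanine and leucine) and overlapping in 3 (asparagine, methionine and cysteine). For each of the 10 separated pairs the exact two-sided permutation test gave p = 0.1, the smallest that 3 libraries against 3 allow, and p = 0.13 after Benjamini-Hochberg adjustment over the 13 pairs. None of these 13 pairs had both enzymes called in opposite directions, and in 5 pairs both were called lower. For proline, outside these pairs, *EPRS1* was called lower (log2 fold change -1.07) and *PARS2* higher (0.64).

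The isoleucine pair had the largest drop. The log2 ratio of *IARS1* to *IARS2* was 0.35, 0.20 and 0.24 in DMSO A, B and C, against -0.40, -0.47 and -0.71 in TH588 A, B and C. Per kilobase of exon the cytosolic gene was the higher of the pair with DMSO and the lower with TH588, a difference of -0.79 in the mean log2 ratio. In CPM, without division by exon length, *IARS1* stayed above *IARS2* with TH588 (means of 390.5 and 317.9). The arginine pair also crossed from above 0 (0.03 to 0.11) to below it (-0.52 to -0.26) per kilobase. In CPM its TH588 means were 127.7 for *RARS1* and 123.6 for *RARS2*, so both crossings depend on the exon lengths used.

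The serine pair had the largest gain, with log2 ratios of *SARS1* to *SARS2* of 3.54, 3.88 and 3.55 with DMSO and 4.27, 4.80 and 4.49 with TH588, but most exon bases of *SARS2* are shared with other genes. The alanine ratio rose from between 3.71 and 3.87 to between 4.14 and 4.19, where *AARS1* and *AARS2* were both lower and the mitochondrial gene fell further. In the leucine pair, at 2.18 to 2.21 with DMSO and 2.41 to 2.51 with TH588, *LARS1* was not called and *LARS2* was lower. The other differences in mean log2 ratio lay between -0.64 (valine) and 0.15 (cysteine).

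**Figure D3:**
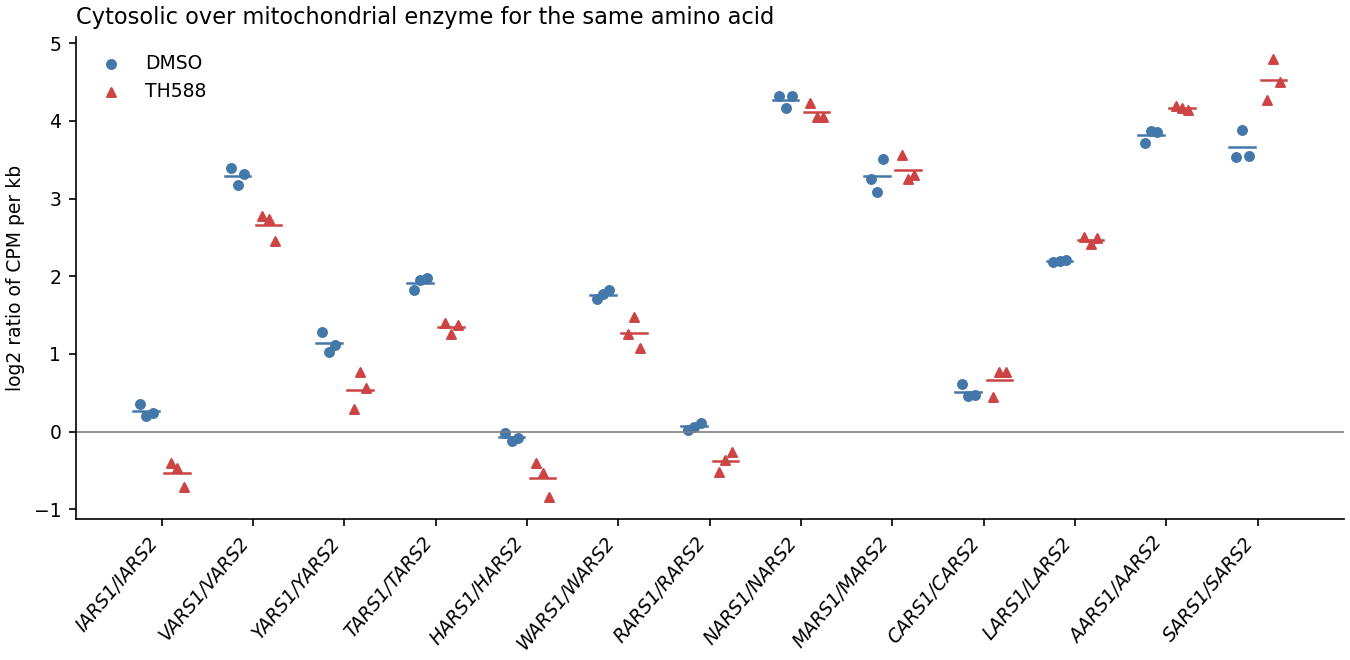
log2 ratio of the cytosolic to the mitochondrial enzyme (CPM per kilobase) in each library, for the 13 amino acids with genes of matching name. Circles stand for DMSO, triangles for TH588 and a line for each mean of 3. Pairs are ordered by the difference between treatments, from isoleucine (-0.79) at the left to serine (0.86) at the right. Circles and triangles overlap only for asparagine, methionine and cysteine.

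Groups that share a structure or a partner were then described. Their counts stand beside the 25.3% of all genes tested that were lower and the 24.2% that were higher. Of the 7 enzymes of the multi-synthetase complex 5 were lower, *QARS1* was higher and *LARS1* was not called, with a median log2 fold change of -0.59. Of the 12 cytosolic genes outside the complex 11 were lower, with a median of -0.62. The scaffold genes *AIMP1* (-0.68, adjusted p = 3.42e-05), *AIMP2* (-0.64, adjusted p = 1.53e-04) and *EEF1E1* (-0.58) were lower in 3 of 3, though exons of other genes cover 11.6% to 28.9% of their exon bases. Class I enzymes, whose catalytic domain is a Rossmann fold, were lower in 11 of 18 and higher in 1. Class II enzymes, built on an antiparallel sheet, were lower in 12 of 16 and higher in 1. *EPRS1* joins an enzyme of each class and was counted in neither.

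ATF4 acts through a composite element, searched here as TGATGNAA (N is any base) on both strands of RefSeq's promoter windows of GRCh38.p14, which run from 250 bases before to 50 bases after each gene's listed starts. Windows were found for 16 cytosolic and 14 mitochondrial members, and not for *AARS2*, *LARS1*, *VARS1*, *VARS2* and *YARS1*. The element was present in 7 of the 16 cytosolic members, in 1 of the 14 mitochondrial members (*YARS2*) and in 4.46% of all 27305 genes with a window. The 8 matches are shown with 11 bases on either side, because these members can be grouped by a sequence that the list did not use. Each is written 5′ to 3′ on the gene's own strand, with the element in capitals.
AARS1 (chr16:70289675-70289704, minus strand): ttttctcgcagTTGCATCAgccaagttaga
CARS1 (chr11:3057407-3057436, minus strand): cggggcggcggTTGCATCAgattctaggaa
GARS1 (chr7:30594834-30594863, plus strand): ttacgcggcgaTTTCATCAtgctccgagcc
IARS1 (chr9:92293692-92293721, minus strand): ttttcagcgcgTTGCATCAcctccgtgcgc
MARS1 (chr12:57488053-57488082, plus strand): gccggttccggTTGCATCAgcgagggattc
NARS1 (chr18:57621804-57621833, minus strand): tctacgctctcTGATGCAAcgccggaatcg
TARS1 (chr5:33440956-33440985, plus strand): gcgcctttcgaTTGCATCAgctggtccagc
YARS2 (chr12:32756076-32756105, minus strand): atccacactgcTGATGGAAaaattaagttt

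In 6 of the 7 cytosolic matches the element read TTGCATCA or its reverse complement TGATGCAA, and in *GARS1* it read TTTCATCA. The matches in *CARS1*, *IARS1*, *MARS1* and *GARS1* began 2 to 33 bases before the listed start, those in *TARS1* and *NARS1* began 2 and 14 bases after it, and those in *AARS1* and *YARS2* began 187 and 197 bases before it. All 7 cytosolic genes with the element were lower, with a median log2 fold change of -0.61. Of the 9 searched without it 7 were lower, *QARS1* was higher and *SARS1* was not called, with a median of -0.63. The median fall was about as large with and without these letters in the window. Whether ATF4 played a part in the fall was not tested. By general knowledge 13 cytosolic enzymes are ATF4 targets, and 11 of them were lower, as were 5 of the 6 others. Of all genes tested 25.3% were lower and 24.2% were higher.

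An E-box, CACGTG, which reads the same on both strands, was in the windows of *IARS1*, *CARS2*, *EARS2* and *MARS2*, and in 8.77% of all genes. An NRF1 core, GCGCATGCG on either strand, was in that of *MARS2* alone among the members and in 2.34% of all genes. Neither overlapped an ATF4 element. Of these 4 genes *EARS2* was not called, and the others fell, where 25.3% of all genes tested were lower.

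Genes that work beside the synthetases were read from the same fit, and their counts stand beside the 25.3% of all genes tested that were lower and the 24.2% that were higher. Of 11 genes that trim, splice or finish tRNA, 8 were lower (72.7%) and 1 was higher (9.09%). *POP1*, a protein of the RNase P and RNase MRP enzymes, fell from 83.7 ± 3.30 to 38.7 ± 4.43 CPM (SD, n = 3 each), and *TSEN15*, a subunit of the tRNA splicing endonuclease, fell from 18.9 ± 2.14 to 8.88 ± 0.863 CPM. *CLP1*, an RNA kinase bound to that endonuclease, rose (log2 fold change 0.36, adjusted p = 0.0147). Of 4 genes that complete charging in mitochondria, *QRSL1*, a subunit of the amidotransferase that makes glutaminyl-tRNA there, was lower (-0.66, adjusted p = 5.53e-05), and the other 3 were not called, a share of 25% that is near that of all genes.

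Of 5 proofreading and peptidyl-tRNA hydrolysis genes, *PTRH2*, which frees tRNA from stalled peptides, was lower (-0.34) with groups that overlapped, and the other 4 were not called. This is 20.0% of the list, below the 25.3% of all genes. Of 6 selenocysteine genes, *EEFSEC*, the elongation factor for this amino acid, was lower (-1.13, 15.3% of exon bases shared) and *SECISBP2*, which binds the selenocysteine insertion element, was higher (0.30), each 16.7% of the list and below the shares of all genes. Elongation factors, which bring charged tRNA to the ribosome and move it along, were mixed. In the cytosol *EEF1D* (-0.67, 34.0% of exon bases shared) and *EEF1B2* (-0.36, 17.4% shared) were lower and *EEF2* (0.37) was higher among 5 tested. In the mitochondria *GFM1* (-0.87) and *TUFM* (-0.31) were lower among 4.

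The amino acid response list held the sensors and targets around ATF4, and 11 of its 21 genes were lower (52.4%, against 25.3% of all genes) and 4 were higher (19.0%, against 24.2%). The 2 largest falls were in amino acid transporters. *SLC7A5*, which carries leucine and other large neutral amino acids, was at 426.3, 413.6 and 403.9 CPM in DMSO A, B and C, against 176.7, 189.1 and 150.1 CPM in TH588 A, B and C (log2 fold change -1.27, adjusted p = 5.43e-07). *SLC1A5*, a glutamine carrier with 23.8% of its exon bases shared, fell by 1.03 on the log2 scale.

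The 2 largest rises were *SESN2*, a leucine sensor and stress gene, from 13.1 ± 0.766 to 46.1 ± 8.18 CPM (SD, n = 3 each), and *DDIT3*, which encodes the stress factor CHOP, from 3.40 ± 0.528 to 6.51 ± 0.434 CPM. Exons of other genes, among them *MARS1*, cover 39.6% of the exon bases of *DDIT3*. *ATF4* itself was lower (-0.36, adjusted p = 0.0235). Its level was 152.6 to 168.9 CPM with DMSO and 100.4 to 142.7 CPM with TH588, with the lowest value in TH588 A. RNA of *ATF4* does not measure its protein, which is set largely by translation.

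**Figure D4:**
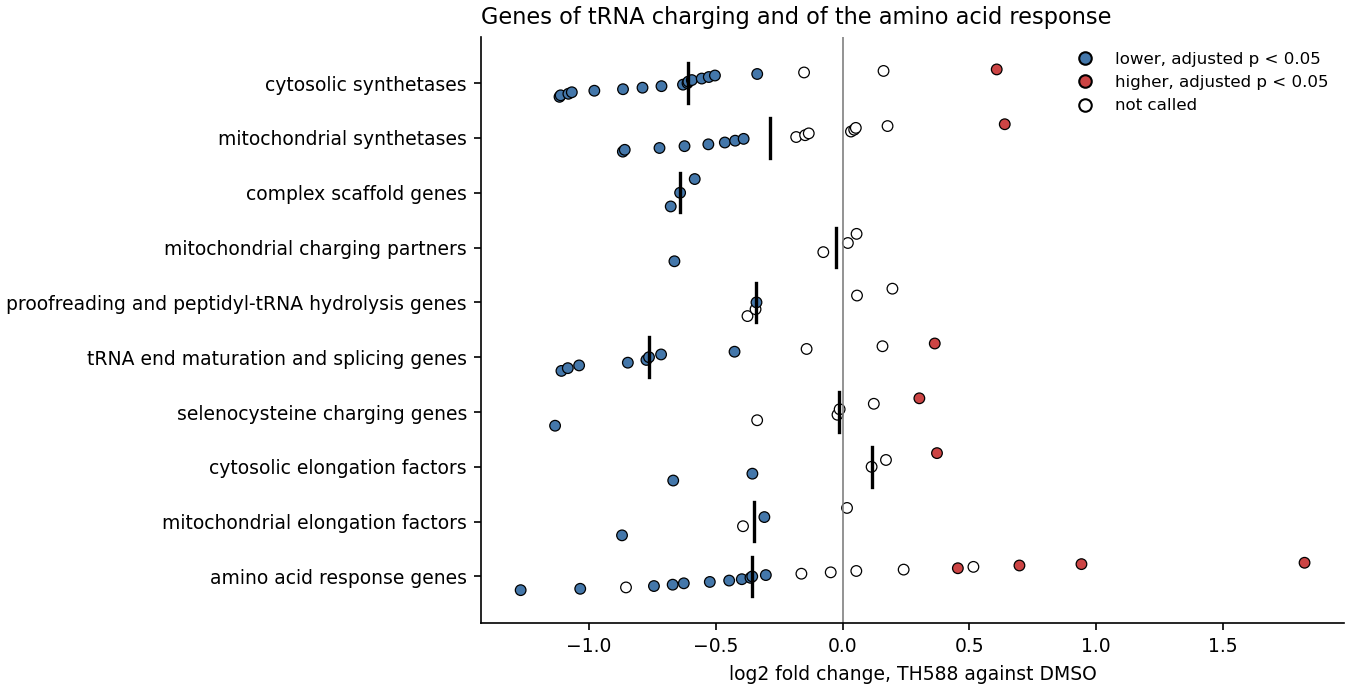
log2 fold change, TH588 against DMSO, of each tested gene in the synthetase lists and in 8 lists of related genes, with a black line at each list's median. Blue points were lower and red points higher at an adjusted p under 0.05, and white points were not called. The cytosolic synthetases (median -0.61), the scaffold genes (-0.64) and the tRNA maturation genes (-0.76) lie mostly to the left of 0, and the cytosolic elongation factors (0.11) do not.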

How the data were processed

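RNA was extracted on columns and TruSeq libraries were made by the authors, who aligned the reads to GRCh38 with TopHat and counted them per gene with featureCounts 1.4.6 (Subread), per the labels. The authors deposited whole-number counts, not normalized. UCSC gene models are named in the methods, but identifiers in the table are those of Ensembl. How reads of overlapping genes were counted is not given in the sources used here.

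Of 58336 genes, 57754 were matched to a symbol, and 99.97% of those overlapped the gene that GENCODE gives this identifier on GRCh38. Genes were tested with edgeR 4.0.16 (R 4.3.3) after TMM normalization and the default filter, with the quasi-likelihood test and Benjamini-Hochberg adjustment over 15844 genes, and were called at an adjusted p under 0.05. CPM values use the TMM library size. The standard error (SE) was taken as the log2 fold change over the root of the F statistic. Ratios within pairs added 0.5 counts. Replicates of a treatment differed by more than sampling noise (chi-square per degree of freedom 25.0 to 176.0), so each library was 1 replicate. The methods call the 3 libraries of a treatment biological replicates. The procedure was tested on simulated counts.

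A gene of a related list is not reported here. The members and lists were chosen with earlier results of these data known. The members named with values in every library are the 6 largest called falls and the rises by log2 fold change, of which there were 2. At most 2 called rises and 2 called falls are named per related list. *KARS1*, *FARSA*, *AARS2*, *HARS1*, *LARS1*, *SARS1*, *HARS2*, *ATF4*, *EEF1E1* and others outside this rule were named after their values were seen. The alternatives tried were scaling by DESeq2's size factors or by library size only, removal of the 10 most abundant genes, DESeq2 1.42.0, limma-voom (limma 3.58.1), no filter on low values, a minimum of 10 counts per library, leaving out single libraries, a block for the replicate letter, a prior count of 2 and an adjusted p under 0.01. Leaving out members with over 10% shared exon bases, and the count over the related lists, were added after seeing the data.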

Additional observations from a re-analysis of the deposited data

How the results depend on the processing

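Over 14 alternatives, 30 of the 35 genes kept the direction and the side of the threshold reported here, and between 24 and 28 were called. With scaling by library size only, the median of all genes moved from 0.02 to 0.13 on the log2 scale, 60.4% of all calls were higher against 48.9%, the cytosolic median was -0.52, and 2 mitochondrial genes were called higher. The count of mitochondrial genes called higher was also 2 with a minimum of 10 counts per library. With each library left out in turn, 1 to 2 cytosolic and 1 to 2 mitochondrial genes were called higher, the larger counts coming without TH588 A, and *VARS2* ranged from -0.027 to 0.145, below 0 only without TH588 B. No called gene changed sign. The cause of these differences was not tested. The methionine ratio, which overlapped between treatments, moved from 0.09 to -0.01 without DMSO B and without TH588 A. Same-lettered libraries did not deviate together (correlations -0.17, -0.20 and -0.01), so the letters were not taken to pair them. With the letter as a replicate block 26 members were called and the cytosolic median was -0.62. With 3 libraries per treatment the exact permutation test of a ratio cannot go below p = 0.1, and reads shared between overlapping genes limit 5 members with over 10% shared exon bases.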
